A study of Mus musculus with 6 samples.

Results

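The genes described here encode 4 adenylyl cyclases (Adcy3, Adcy6, Adcy7 and Adcy9) and the 6 subunits of protein kinase A (PKA): the catalytic subunits Prkaca and Prkacb, and the regulatory subunits Prkar1a, Prkar1b, Prkar2a and Prkar2b. They were taken by exact symbol from a table of 38926 gene symbols, and all 10 were found. The RNA came from blood stem and progenitor cells of mouse leg bones (femur and tibia), sorted for absent lineage antigens (Lin-) and for Sca1 and cKit (the LSK gate). There were 3 libraries labelled Drd2 Drd3 double knockout (KO) and 3 labelled wild type (WT), all from C57BL/6 mice of 8 to 12 weeks with no treatment. The labels give neither the design of the Drd2 and Drd3 alleles nor whether each library is a different mouse, so the p-values reflect only how far these samples spread, which may be technical.

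Adenylyl cyclases make cyclic AMP (cAMP) from ATP. The G protein subunit Gs stimulates them, and Gi, to which the dopamine receptors Drd2 and Drd3 of the D2 class couple, inhibits several of them. In the PKA holoenzyme a dimer of regulatory subunits holds catalytic subunits inactive. When cAMP binds the regulatory subunits, the catalytic subunits are released and phosphorylate targets such as the transcription factor Creb1. Type I holoenzymes (Prkar1a, Prkar1b) are largely cytosolic, whereas type II holoenzymes (Prkar2a, Prkar2b) are mostly held at membranes and organelles by A-kinase anchoring proteins.

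Some libraries stood apart from their labels or from each other. Drd2 was listed at 0 FPKM (reads per kilobase of gene, scaled for sequencing depth) in all 6 libraries. Drd3 measured 1.62, 3.08 and 3.04 FPKM in the libraries labelled KO and 0 in the 3 labelled WT, the reverse of what the labels alone would lead to. With the allele design not given, the reason was not tested, so every direction below is that between the libraries as labelled. The Y-linked gene Ddx3y was absent (0) from KO replicates 1 and 3, while KO replicate 2 had 15.1 FPKM and the libraries labelled WT had 12.5 to 13.9 FPKM. Igkc, an immunoglobulin light chain gene, measured 3182, 4.93 and 1173 FPKM in the libraries labelled KO and 1.98 to 2.48 FPKM in those labelled WT. The LSK markers Kit and Ly6a were at 82.5 to 129 and 114 to 161 FPKM in the libraries labelled KO and at 105 to 150 and 110 to 129 FPKM in those labelled WT. Cd34, also expressed by progenitors, had 366 to 460 FPKM in the libraries labelled KO and 659 to 691 FPKM in those labelled WT, and the sum of these and Flt3 was 613 to 735 and 950 to 1045 FPKM. The T cell lineage antigens Cd3e and Cd8a stayed under 1 FPKM in every library. Whole reads recovered from the FPKM steps came to 5243137 to 7142922 per library.

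The promoters of the 3 regulatory subunit genes with the clearest values below are shown with their matches to TGACG, the core of the cAMP response element, on either strand (CGTCA on the other). Each window runs from 250 bases before to 50 after a RefSeq transcript start in build GRCm38.p6, which is mm10, 5′ to 3′ on the strand of the gene, with matches in capitals. The Prkar2b window lies at chr12:32061228-32061527 on the minus strand, the Prkar2a window at chr9:108691893-108692192 on the plus strand and the Prkar1a window at chr11:109650699-109650998 on the plus strand.
Prkar2b: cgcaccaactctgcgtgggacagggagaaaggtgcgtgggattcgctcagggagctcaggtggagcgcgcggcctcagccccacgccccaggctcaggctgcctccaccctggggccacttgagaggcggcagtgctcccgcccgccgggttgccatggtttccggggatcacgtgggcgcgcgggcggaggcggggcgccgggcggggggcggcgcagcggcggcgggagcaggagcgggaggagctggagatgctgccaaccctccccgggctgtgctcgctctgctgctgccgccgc
Prkar2a: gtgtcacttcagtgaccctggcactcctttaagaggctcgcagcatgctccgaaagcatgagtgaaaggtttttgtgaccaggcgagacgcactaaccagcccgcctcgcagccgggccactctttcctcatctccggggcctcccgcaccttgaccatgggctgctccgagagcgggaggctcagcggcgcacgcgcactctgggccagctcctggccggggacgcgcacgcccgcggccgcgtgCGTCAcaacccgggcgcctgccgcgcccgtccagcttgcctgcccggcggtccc
Prkar1a: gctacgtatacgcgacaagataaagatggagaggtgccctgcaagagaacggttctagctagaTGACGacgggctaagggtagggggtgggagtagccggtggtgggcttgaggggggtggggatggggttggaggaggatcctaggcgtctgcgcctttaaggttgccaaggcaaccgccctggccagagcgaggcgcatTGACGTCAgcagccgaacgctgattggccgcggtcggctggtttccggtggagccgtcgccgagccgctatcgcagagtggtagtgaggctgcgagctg
The Prkar2b window held no match and the Prkar2a window held 1, with its first base 4 bases before the start. The Prkar1a window held 3 matches, of which 2 overlap and form the full palindrome TGACGTCA. Of 32841 RefSeq promoter windows of this length, 20.8% held TGACG and 1.79% held TGACGTCA. RefSeq windows were found for 9 members, 25 in all, and 9 of these windows held TGACG. Prkar1a had 6 windows, of which 3 held TGACG. The window shown and the one starting at 109650612 overlap and hold the same 3 matches, so these sites are counted more than once. The other Prkar2b window, not shown, held no match. A match is a run of letters, not a measured binding site.

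In the libraries labelled WT, Prkar1a was by far the most abundant of the 10 transcripts per length. It was at 196, 201 and 189 FPKM, above 97.1% of the 11371 tested genes, those averaging 1 FPKM or more over the 6 libraries. Prkacb (44.8, 40.0 and 32.3 FPKM), Prkaca (34.1, 36.0 and 30.9 FPKM) and Prkar2b (30.2, 32.0 and 28.9 FPKM) followed, and the ranges of neighbours in this order overlapped, although Prkacb was above Prkaca and Prkaca above Prkar2b within each of the 3 libraries. Adcy7 (13.7, 11.0 and 8.83 FPKM) and Prkar2a (10.5, 7.77 and 9.07 FPKM) also overlapped. Below them came Adcy3 at 2.05 to 3.51 FPKM and Adcy9 at 1.02 to 1.72 FPKM, with no overlap between these or with Prkar2a. Adcy6 at 0.399 to 0.772 FPKM and Prkar1b at 0.0448 to 0.715 FPKM were lowest and overlapped. In the libraries labelled KO the order was the same except that Prkar2b stood second, above both catalytic subunits in each library. The libraries labelled WT thus held mainly Prkar1a among type I, Prkar2b among type II and Adcy7 among cyclase transcripts, with both catalytic subunits at similar levels. The table gives 1 value per gene, so splice isoforms within a gene were not resolved.

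**Figure D1:**
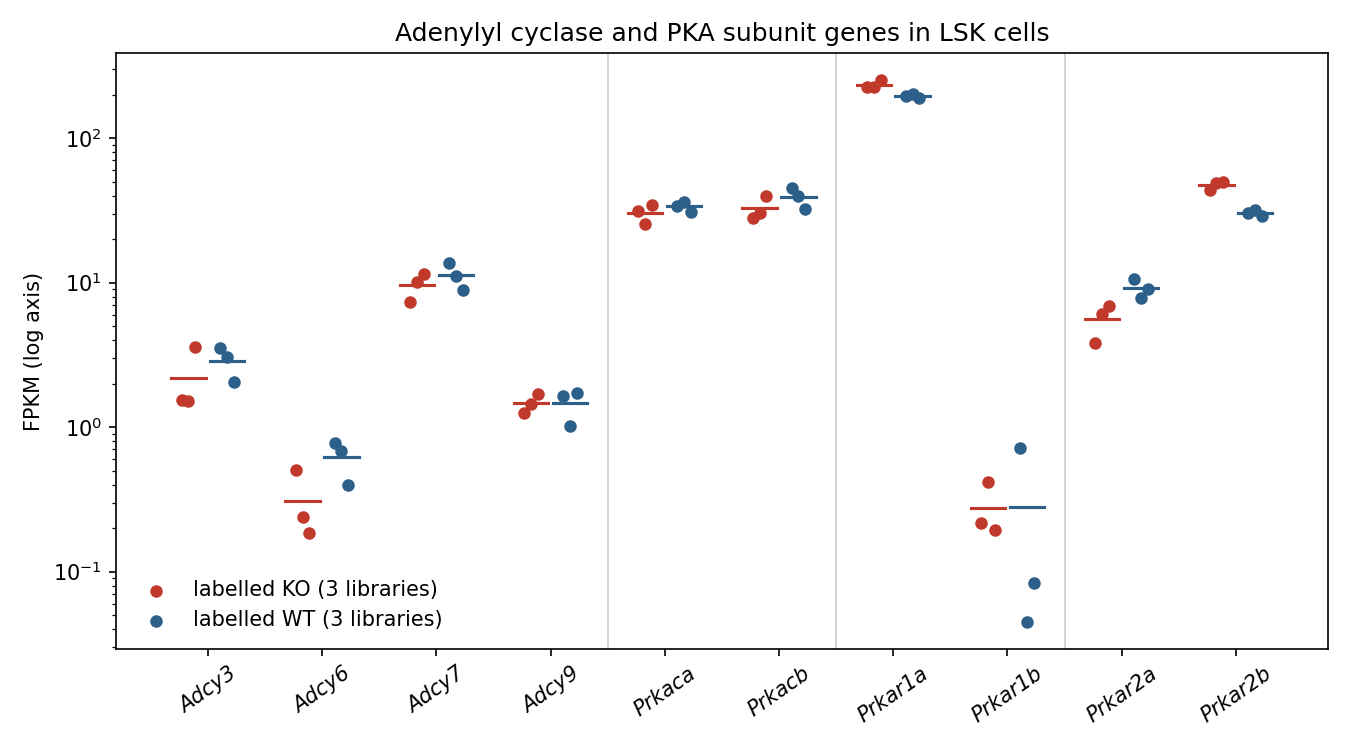
FPKM (log axis) of the 10 genes in each library, those labelled KO left of those labelled WT; points are libraries and lines are group means. Prkar1a lies at 189 to 252 FPKM in all 6 libraries, and the groups separate for Prkar1a, Prkar2a and Prkar2b.

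The order of levels per length rests on the gene lengths the authors used. The length implied by the FPKM steps was that of the GENCODE M21 exons for 5 of the 10 genes (Adcy3, Adcy9, Prkar1a, Prkar1b and Prkar2b). For Prkacb it was 5451 bases, against 8772 in GENCODE M21, and for Prkar2a 4041 bases, against 6378. On the GENCODE M21 lengths Prkacb averaged 24.2 FPKM and Prkaca 31.0 FPKM in the libraries labelled WT, so their order turned round. Prkar2a averaged 5.78 FPKM there and Prkar2b stayed at 30.4 FPKM. Prkar2b was then above Prkacb in each library labelled WT (30.2, 32.0 and 28.9 FPKM, against 27.8, 24.9 and 20.1 FPKM). In WT replicate 3 it was also above Prkaca (28.9 against 28.5 FPKM). The place of Prkar2b against the catalytic subunits in those libraries therefore depends on the lengths. The ratio of a gene's FPKM between libraries does not depend on the length, but its log2(FPKM + 1) values and the filter at 1 FPKM do.

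Between the groups, Prkar2b was the 1 member that changed past the test, and it rose. Of 8 members tested (limma on log2(FPKM + 1), Benjamini-Hochberg adjusted p under 0.05 over all 11371 genes), 1 rose and none fell, while 5.48% of all tested genes were called higher and 5.43% lower. By limma-voom on recovered reads 1 member rose and 1 (Prkar2a) fell, beside 6.02% and 7.97% of genes. With no filter on low values all 10 could be tested, and 1 rose and none fell, beside 1.73% and 1.31% of genes. At an unadjusted p under 0.05, limma gave 3 members: Prkar2b and Prkar1a higher, beside 13.4% of all tested genes, and Prkar2a lower, beside 14.1%. In these same 3, of 8 tested, the ranges of the libraries labelled KO and WT lay apart, as in 16.2% of tested genes on the higher side, 16.6% on the lower and 32.8% in all. The median log2 fold change was -0.18 over the 8 tested members and -0.002 over all tested genes. All 3 genes encode regulatory subunits, but 3 of 8 is near the share of 32.8% over all tested genes. The other regulatory subunit gene, Prkar1b, which was below the filter, overlapped between the groups, as did each catalytic and cyclase gene.

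Prkar2b encodes RII-beta, the type II regulatory subunit known best from brain and fat. Its gene lies on chromosome 12 from 31958476 to 32061296 on the minus strand, as all positions here in build GRCm38. It had 43.6, 49.0 and 49.5 FPKM in the libraries labelled KO, against 30.2, 32.0 and 28.9 FPKM in those labelled WT. All 3 libraries labelled KO stood above all 3 labelled WT, and within each group the values lay close together. The means were 47.4 ± 3.27 and 30.4 ± 1.56 FPKM (SD, n = 3 per group throughout), a ratio of 1.56. The log2 fold change was 0.62 ± 0.10 SE (limma adjusted p = 0.00649; 0.00280 to 0.0462 over its 16 alternatives, all of which called it). Behind these values were 1149, 1238 and 980 recovered reads in the libraries labelled KO and 689, 685 and 659 in those labelled WT. In bulk samples a change in the mix of cells and a change in RNA per cell cannot be told apart.

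Within the libraries that hold Ddx3y transcripts, Prkar2b had 49.0 FPKM in KO replicate 2 and 28.9 to 32.0 FPKM in the 3 labelled WT (log2 fold change 0.68, limma adjusted p = 0.0390, with 1 library on the KO side assumed to vary like the others). Summed markers of other cells also differed between the libraries, and those of erythroid cells separated the groups. The summed level of 10 erythroid markers was 2782, 3890 and 2273 FPKM in the libraries labelled KO and 1667, 1398 and 1725 FPKM in those labelled WT. Car2 gave the largest part (1287 to 1721 FPKM labelled KO, 920 to 976 FPKM labelled WT). Klf1 lay further apart in proportion (57.9 to 135 FPKM labelled KO, 16.6 to 24.2 FPKM labelled WT). So did Rhd (35.6 to 72.0 FPKM labelled KO, 8.04 to 12.6 FPKM labelled WT). Epor (12.9 to 27.8 and 3.15 to 5.43 FPKM) and Rhag (20.9 to 33.0 and 3.43 to 5.27 FPKM) did too. Of the haemoglobin genes, Hba-a1 lay apart (253 to 476 FPKM labelled KO, 133 to 233 FPKM labelled WT). Hbb-bs, alone among the 10 erythroid markers, overlapped (299 to 573 FPKM labelled KO, 166 to 310 FPKM labelled WT). The sum of 6 megakaryocyte markers was 222, 234 and 142 FPKM in the libraries labelled KO and 99.1, 147 and 89.7 FPKM in those labelled WT, with overlap. None of these 16 markers was at 0 in all 6 libraries. Flt3, a receptor of multipotent progenitors, was at 31.8 to 38.6 FPKM in the libraries labelled KO and at 76.6 to 94.0 FPKM in those labelled WT. The part of these cells in the Prkar2b result was not tested. The sum of 9 B and plasma cell markers was 3368, 122 and 1381 FPKM in the libraries labelled KO and 128 to 150 FPKM in those labelled WT. Igkc gave most of it in KO replicates 1 and 3 only. In the other libraries Xbp1 gave most (64.2 FPKM in KO replicate 2, 80.0 to 88.2 FPKM in those labelled WT). Beside these sums Prkar2b had 43.6, 49.0 and 49.5 FPKM in the libraries labelled KO, and the part of B and plasma cells was not tested either. Sums of macrophage and dendritic markers (18.7 to 20.5 FPKM labelled KO, 24.8 to 33.5 FPKM labelled WT), of T and NK markers (188 to 296 FPKM labelled KO, 353 to 418 FPKM labelled WT) and of endothelial and stromal markers (16.5 to 19.0 and 20.5 to 30.0 FPKM) were lower in every library labelled KO, while mast cell sums (55.0 to 105 and 40.5 to 67.4 FPKM) and neutrophil sums (25.9 to 157 and 115 to 233 FPKM) overlapped. Cpa3 gave most of the mast cell sum (40.6 to 84.4 FPKM labelled KO, 40.5 to 64.6 FPKM labelled WT). Tpsb2 lay apart (3.46 to 14.0 FPKM labelled KO, 0 in those labelled WT). So did Cma1 (3.77 to 12.2 FPKM labelled KO, 0 to 0.447 FPKM labelled WT), whereas Mcpt4 and Fcer1a overlapped. A single gene carried the T and NK sum, Nkg7 (187 to 291 FPKM labelled KO, 352 to 417 FPKM labelled WT), while Cd3g and Ncr1 were at 0 and Trac averaged 2.07 FPKM labelled KO and 0.655 FPKM labelled WT. Trac overlapped, with 4.70, 1.05 and 0.446 FPKM in the libraries labelled KO. Cd68 led the macrophage sum (averages of 14.0 FPKM labelled KO and 23.2 FPKM labelled WT), whereas Csf1r averaged 4.30 FPKM labelled KO and 4.27 FPKM labelled WT, and Emr1 0.547 FPKM labelled KO and 0.136 FPKM labelled WT. Emr1 overlapped too, with 1.15, 0.0892 and 0.398 FPKM in the libraries labelled KO. Among endothelial and stromal markers Cxcl12 differed most (averages of 4.99 FPKM labelled KO and 10.3 FPKM labelled WT). Pecam1 overlapped (9.85 to 11.3 FPKM labelled KO, 10.5 to 12.8 FPKM labelled WT). Lepr and Col1a1 averaged lower labelled KO. Kdr and Cdh5 went the other way, with averages of 0.417 and 0.0931 FPKM labelled KO and 0.211 and 0.0143 FPKM labelled WT.

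Prkar2a encodes RII-alpha, the widely expressed type II subunit (chromosome 9, 108689314 to 108750436, plus strand). It had 3.84, 6.09 and 6.89 FPKM in the libraries labelled KO, against 10.5, 7.77 and 9.07 FPKM in those labelled WT. Each library labelled KO was below each labelled WT, but the spread within groups was wide. The means were 5.60 ± 1.58 and 9.13 ± 1.39 FPKM, and the log2 fold change of -0.64 ± 0.20 SE did not pass (limma adjusted p = 0.0775; 0.0395 to 0.369 over its alternatives). It passed in 2 of 16 alternatives: by limma-voom on recovered reads (-0.76 ± 0.22 SE, adjusted p = 0.0395) and without the library labelled KO replicate 3 (-0.78, limma adjusted p = 0.0446).

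Prkar1a encodes RI-alpha, the subunit whose loss of function in humans causes Carney complex (chromosome 11, 109649405 to 109669656, plus strand). It had 225, 227 and 252 FPKM in the libraries labelled KO, against 196, 201 and 189 FPKM in those labelled WT, again without overlap. The means were 234 ± 14.9 and 195 ± 6.19 FPKM. The log2 fold change of 0.26 ± 0.09 SE did not pass (limma adjusted p = 0.0954; 0.0590 to 0.366 over its alternatives, none of which called it). Prkar1b, which encodes RI-beta and is known mainly from neurons, measured 0.218, 0.418 and 0.193 FPKM in the libraries labelled KO and 0.715, 0.0448 and 0.0840 FPKM in those labelled WT. These are 6, 11 and 4 reads in the libraries labelled KO and 17, 1 and 2 in those labelled WT, and the gene was below the filter. GENCODE M21 places exons of Gm15672 over 341 bases of those of Prkar1b, so a few of these reads may belong to it. With no filter Prkar1b was at 0.03 ± 0.20 SE on the log2 scale (limma adjusted p = 0.957).

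**Figure D2:**
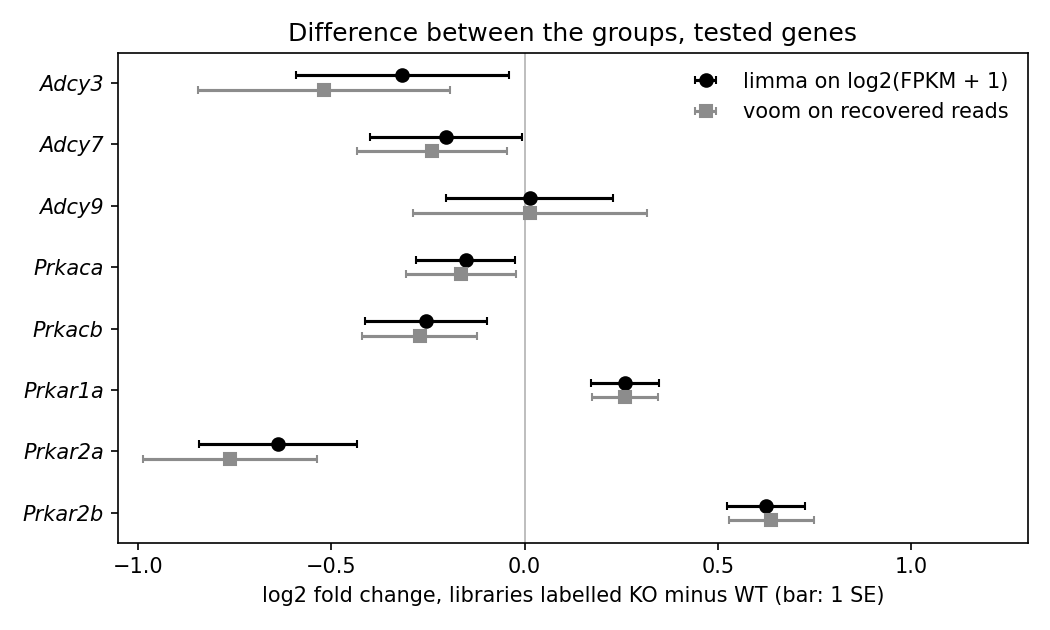
Log2 fold change of the 8 tested genes, libraries labelled KO minus those labelled WT, with bars of 1 SE, by limma on log2(FPKM + 1) and by voom on recovered reads. Prkar2b lies at 0.62 and 0.64, Prkar2a at -0.64 and -0.76, and the cyclase and catalytic genes lie at most 1.61 SE (limma) and 1.84 SE (voom) from 0.

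The catalytic subunits did not pass the test. Prkaca encodes C-alpha, the main catalytic subunit of most tissues (chromosome 8, 83972993 to 83996443, plus strand). It had 31.1, 25.6 and 34.4 FPKM in the libraries labelled KO and 34.1, 36.0 and 30.9 FPKM in those labelled WT, with overlap (-0.15 ± 0.13 SE on the log2 scale, adjusted p = 0.480 by limma). Prkacb encodes the closely related C-beta (chromosome 3, 146729574 to 146812990, minus strand). It had 27.9, 30.4 and 39.5 FPKM in the libraries labelled KO and 44.8, 40.0 and 32.3 FPKM in those labelled WT. The groups overlapped through KO replicate 3 and WT replicate 3 (-0.25 ± 0.16 SE, adjusted p = 0.334). Prkaca was above Prkacb in the library labelled KO replicate 1 and below it in the other 5, but above it in all 6 on the GENCODE M21 lengths.

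Among the cyclases, Adcy7 led in every library. It encodes a cyclase of blood and immune cells whose stimulation by Gs is enhanced by G protein beta-gamma subunits (chromosome 8, 88272403 to 88329962, plus strand). It had 7.29, 10.1 and 11.4 FPKM in the libraries labelled KO and 13.7, 11.0 and 8.83 FPKM in those labelled WT, so the groups overlapped (-0.20 ± 0.20 SE on the log2 scale, adjusted p = 0.547 by limma). Adcy3, known from olfactory neurons, measured 1.53, 1.51 and 3.57 FPKM in the libraries labelled KO and 3.51, 3.06 and 2.05 FPKM in those labelled WT (-0.32 ± 0.28 SE, adjusted p = 0.497). The library labelled KO replicate 3 was the highest of all 6 for Adcy3 and the other 2 labelled KO were the lowest. Of the Adcy3 exons, 1380 bases also belong to Cenpo on the other strand (4.16 FPKM in the libraries labelled KO and 4.60 FPKM in those labelled WT, on average). Reads of the 2 genes there cannot be told apart, because the kit keeps no strand.

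Adcy9, a cyclase with low sensitivity to forskolin, measured 1.25, 1.45 and 1.70 FPKM in the libraries labelled KO and 1.63, 1.02 and 1.72 FPKM in those labelled WT (31 to 56 reads per library). The groups overlapped almost fully (0.01 ± 0.22 SE, limma adjusted p = 0.977). Adcy6, a calcium-inhibited cyclase, measured 0.507, 0.240 and 0.184 FPKM in the libraries labelled KO and 0.772, 0.680 and 0.399 FPKM in those labelled WT. The groups overlapped in 1 library each, and the gene, with 6 to 29 reads per library, was below the filter. With no filter its log2 fold change was -0.30 ± 0.15 SE (limma adjusted p = 0.335). Of the Adcy6 exons, 605 bases are shared with Gm29331 on the other strand. Of the 6 other cyclase genes, Adcy1, Adcy5, Adcy8 and Adcy10 were listed at 0 in every library. Adcy2 averaged 0.0329 FPKM in the libraries labelled KO and 0.236 FPKM in those labelled WT. Adcy4 averaged 0.196 FPKM in the libraries labelled KO and 0.129 FPKM in those labelled WT.

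The make-up of the PKA transcripts within a library is free of differences in depth between libraries. Prkar2b made up 91.9, 89.0 and 87.8% of type II regulatory FPKM in the libraries labelled KO, against 74.1, 80.5 and 76.1% in those labelled WT. The share was higher in every library labelled KO, by 12.6 percentage points on average. The summed regulatory subunits stood to the summed catalytic subunits at 4.62, 5.04 and 4.17 in the libraries labelled KO, against 3.01, 3.17 and 3.59 in those labelled WT, again without overlap. Type II subunits held 17.4, 19.5 and 18.3% of regulatory FPKM in the libraries labelled KO and 17.2, 16.5 and 16.7% in those labelled WT, a narrow gap. For each of these 3 values the two-sided exact permutation test gave p = 0.1, the smallest that 3 libraries against 3 allow, and 0.167 adjusted over the 5 values computed. The test therefore cannot pass a threshold of 0.05 here. Prkaca held 45.6 to 52.7% of catalytic FPKM in the libraries labelled KO and 43.2 to 48.9% in those labelled WT (exact permutation p = 0.6, adjusted 0.75). Adcy7 held 67.7 to 76.0% of the summed FPKM of the 4 cyclases in the libraries labelled KO and 67.9 to 69.9% in those labelled WT (exact permutation p = 0.9, adjusted 0.9).

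**Figure D3:**
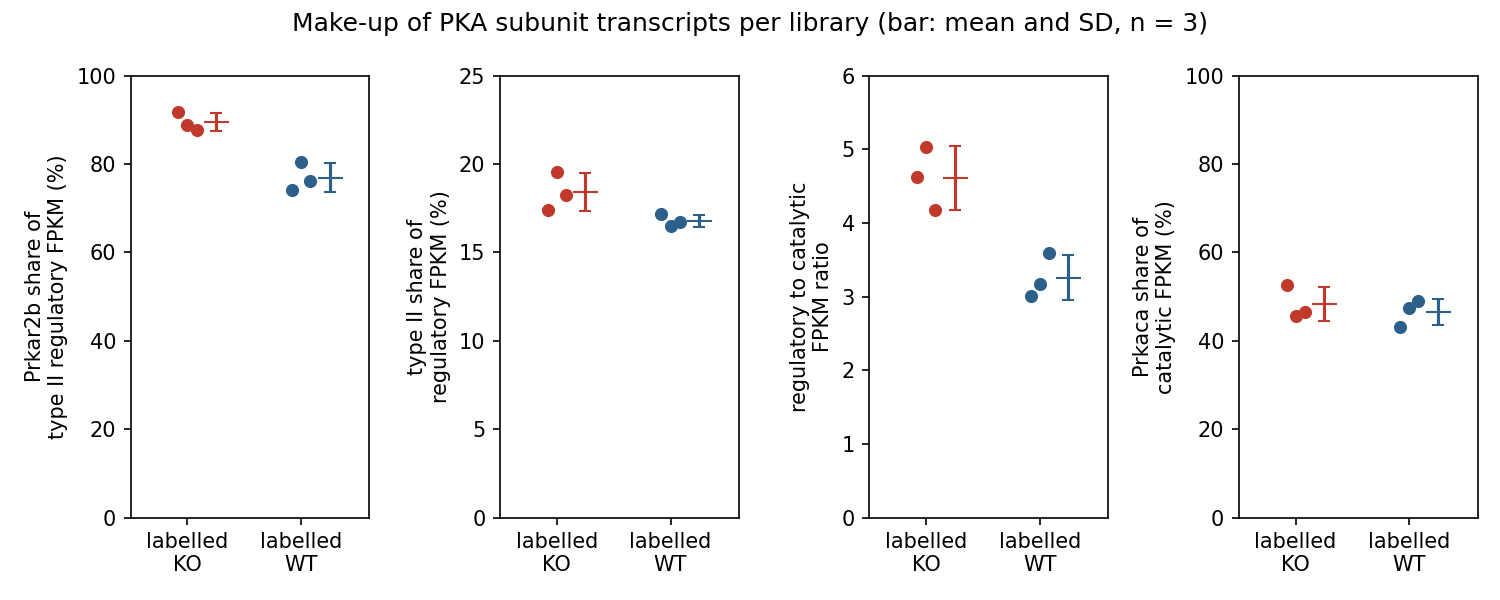
Share of Prkar2b in type II regulatory FPKM, share of type II in regulatory FPKM, ratio of summed regulatory to summed catalytic FPKM, and share of Prkaca in catalytic FPKM, per library (points), with mean and SD, libraries labelled KO left of those labelled WT. The groups do not overlap in the first 3 panels (87.8 to 91.9% against 74.1 to 80.5% for Prkar2b) and overlap in the fourth.

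By sums, regulatory subunits reached 273, 282 and 308 FPKM in the libraries labelled KO, against 237, 241 and 227 FPKM in those labelled WT. Of the mean difference of 52.5 FPKM, type I subunits gave 39.0 and type II subunits 13.5, on the FPKM scale. Catalytic subunits summed to 59.0, 56.0 and 73.9 FPKM in the libraries labelled KO and 78.9, 76.0 and 63.2 FPKM in those labelled WT, with overlap. The 4 cyclases summed to 10.6, 13.3 and 16.9 FPKM in the libraries labelled KO and 19.6, 15.8 and 13.0 FPKM in those labelled WT, also with overlap. These are transcript levels per length and say nothing of protein.

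The tested genes with the pattern most like Prkar2b over the 6 libraries were Mboat2 (Pearson's r = 0.997 on log2(FPKM + 1)), a lysophospholipid acyltransferase gene, and Adamtsl5 (r = 0.994). Mboat2 measured 9.45, 11.8 and 10.9 FPKM in the libraries labelled KO and 4.17, 4.93 and 3.83 FPKM in those labelled WT. In all, 167 genes had r above 0.95 with Prkar2b, and these correlations share the same 6 libraries and the gap between the groups.

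Around these genes, a list of 65 other genes of the pathway was examined, of which 35 passed the filter. Of these, 4 rose and 1 fell, with a median log2 fold change of 0.05, against 5.48% higher and 5.43% lower among all tested genes. The enzymes that break down cAMP held 3 of the 4 rises. Of 8 tested phosphodiesterases 3 rose and none fell. At an unadjusted p under 0.05, 4 were higher and none lower, beside 13.4% and 14.1% of all tested genes. By limma-voom 3 rose and none fell, beside 6.02% and 7.97% of genes. The cGMP-stimulated Pde2a measured 13.5, 14.2 and 20.0 FPKM in the libraries labelled KO, against 7.55, 4.77 and 3.87 FPKM in those labelled WT (1.42 ± 0.23 SE on the log2 scale, adjusted p = 0.00610 by limma). The cGMP-inhibited Pde3b measured 9.66, 9.35 and 11.2 FPKM in the libraries labelled KO, against 5.57, 3.02 and 3.25 FPKM in those labelled WT (1.20 ± 0.20 SE, adjusted p = 0.00813). The calmodulin-dependent Pde1b measured 5.82, 5.24 and 7.86 FPKM in the libraries labelled KO, against 2.82, 3.00 and 2.44 FPKM in those labelled WT (0.95 ± 0.18 SE, adjusted p = 0.0132). None of the 3 overlapped between groups, as in 16.2% of all tested genes on the higher side. Of the sums given with Prkar2b, the erythroid (led by Car2), T and NK (Nkg7), macrophage (mainly Cd68) and endothelial and stromal (by Cxcl12 most) separated the groups too. Their part in these rises was not tested. All 3 missed the threshold without the libraries labelled KO replicates 1 and 3, which lack Ddx3y transcripts (log2 fold changes 1.29, 1.10 and 0.74, limma adjusted p = 0.0940, 0.116 and 0.104), and with a term for Ddx3y (0.0814, 0.0912 and 0.147). Pde1b also missed it with no filter (limma adjusted p = 0.0509) and without WT replicate 2 or 3 (0.0513 and 0.0567).

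Of 10 tested A-kinase anchoring genes, 1 rose and 1 fell, beside 5.48% and 5.43% of all tested genes. At an unadjusted p under 0.05, 2 were higher and 1 lower, beside 13.4% and 14.1% of all tested genes. By limma-voom 2 rose and 1 fell, beside 6.02% and 7.97% of genes. Akap8l, a nuclear relative of Akap8, measured 31.2, 34.3 and 30.4 FPKM in the libraries labelled KO, against 24.1, 22.0 and 24.3 FPKM in those labelled WT (0.43 ± 0.10 SE, limma adjusted p = 0.0305). Akap13, another anchoring protein gene, measured 11.8, 11.2 and 13.6 FPKM in the libraries labelled KO, against 19.8, 16.1 and 17.2 FPKM in those labelled WT (-0.50 ± 0.13 SE, adjusted p = 0.0408). Both had separate groups, as did 16.2% of all tested genes on the higher side and 16.6% on the lower. Akap8l and Akap13 missed the threshold in most alternatives, among them leaving out any 1 library other than KO replicate 3 (limma adjusted p of 0.0618 to 0.136 for Akap8l and 0.0909 to 0.146 for Akap13). Rab32 measured 62.4, 46.1 and 59.7 FPKM in the libraries labelled KO, against 43.3, 33.8 and 41.2 FPKM in those labelled WT. It did not pass (0.49 ± 0.14 SE, limma adjusted p = 0.0567) but was called higher in 4 of 16 alternatives, limma-voom among them. None of the 3 tested inhibitor and Prkx genes, the 1 tested cAMP effector (Rapgef3), the 5 tested G protein alpha subunits or the 8 tested CREB factors and coactivators was called by limma on FPKM as deposited. The inhibitor gene Pkib was below the filter (0.576, 0.515 and 0.281 FPKM labelled KO, 1.14, 1.79 and 1.29 FPKM labelled WT). So was Gnai1 (0.781, 0.680 and 0.866 FPKM labelled KO, 0.451, 0.0534 and 0.451 FPKM labelled WT). Neither was called with no filter. At an unadjusted p under 0.05, 2 G protein subunits were higher and 2 lower, and 1 CREB-group gene was higher and 1 lower, beside the same 13.4% and 14.1% of all tested genes. By limma-voom 1 G protein subunit, Gnai2, named after its values were seen, was called lower (-0.29 ± 0.08 SE, adjusted p = 0.0307), as it was by limma with libraries rescaled to the same sum (-0.30 ± 0.07 SE, adjusted p = 0.0247), but in none of the other 14 alternatives (0.0544 to 0.208). None of the other inhibitor, effector, G protein or CREB genes was called by limma-voom, which called 6.02% of genes higher and 7.97% lower.

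**Figure D4:**
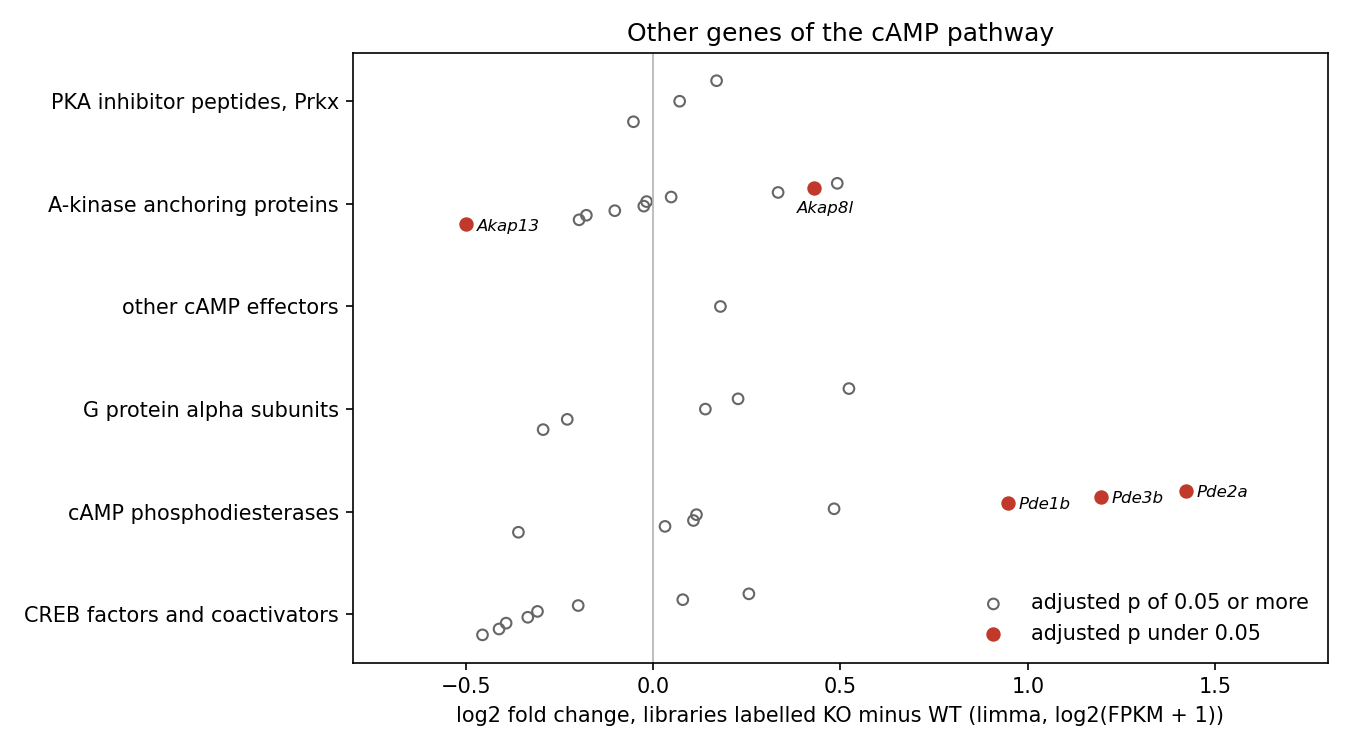
Log2 fold change (libraries labelled KO minus those labelled WT, limma on log2(FPKM + 1)) of the 35 other tested genes of the cAMP pathway, by list; filled points passed an adjusted p of 0.05. Pde2a, Pde3b and Pde1b lie at 1.42, 1.20 and 0.95, and the CREB group has its median at -0.32 with no member called.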

How the data were processed

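The authors deposited FPKM values, 1 per gene symbol and library. The submitters' processing notes name build mm10 and, without roles or order, DESeq2 (version 1.18.1), HTSeq (version 0.6.1), TopHat2 (version 2.1.1) and bcl2fastq (version 2.19.1.403). The annotation and strand setting were not given in the sources used here. Per the labels' protocols, libraries were made with SMART-Seq v4 and Nextera XT, which do not mark strand.

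Whole reads were recovered from ratios of FPKM between libraries, and all 17183 genes detected in at least 2 libraries gave whole numbers (tolerance 1e-06, relative). GENCODE M21 exon lengths set the scale. Where a gene's length did not match them (50.9% of these genes), the reads are the smallest whole numbers that give a whole length.

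Groups were compared in limma 3.58.1 (R 4.3.3) on log2(FPKM + 1), with the variance trended on the mean and genes averaging under 1 FPKM left out. The added 1 shrinks the fold changes of low genes. Shares were compared by exact permutation (scipy 1.17.1). The code was tested on simulated data. The 10 genes were given, called genes of the pathway lists were named by smallest p, at most 4 per list, and genes were likened to Prkar2b by Pearson's r. Members and lists were chosen with earlier results of these data known. Alternatives were 0.1 as pseudocount, no filter or 5 FPKM, other scalings, no trend, voom, a replicate block, each library left out, and a term for or removal of libraries without Ddx3y.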

Additional observations from a re-analysis of the deposited data

How the results depend on the processing

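The rise of Prkar2b kept its direction and its call in all 16 alternative fits (log2 fold change 0.59 to 0.68). Adcy9, near 0, turned to -0.05 without KO replicate 3 and to -0.12 without WT replicate 2 (-0.12 to 0.094 when each library was left out). The count of members lower in the libraries labelled KO was 0, 1 by voom on recovered reads, and 0 to 1 when each library was left out. For the other 35 tested pathway genes the counts were 4 higher and 1 lower. They were 2 to 4 higher and 0 to 2 lower when each library was left out, and 0 and 0 both with a term for Ddx3y and without the libraries lacking it, fits in which KO replicate 2 alone sets the difference. The lower count was also 0 with no filter, with no trend and with the replicate block, and 2 by voom. The higher count was 3 with no filter and with no trend, and 5 by voom. With the replicate block, Prkar2b was at an adjusted p of 0.0238 in limma and over all genes 805 were called, against 1240 without it. Same-numbered libraries correlated at -0.03, 0.05 and -0.12 in their deviations from the group means, so the numbers were not taken as pairs. Over all genes 588 were called with no filter, 370 to 1598 when each library was left out, 373 with the Ddx3y term and 514 without the libraries lacking it.

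The higher share of Prkar2b in type II FPKM held under all 9 alternatives (9.12 to 14.4 percentage points), and the higher ratio of regulatory to catalytic subunits under all 10 (1.14 to 1.78). The Prkaca share differed by 1.81 percentage points, -0.88 without the libraries labelled KO that lack Ddx3y, and -0.40 to 3.15 when each library was left out. The Adcy7 share differed by 1.64, by 6.81 without the libraries labelled KO that lack Ddx3y, and by -0.94 to 3.24 when each library was left out. The type II share of regulatory FPKM differed by 1.62, by 2.75 without those libraries, by 1.05 without KO replicate 2 and by up to 2.12 when another library was left out. Exon lengths from GENCODE M21 were added as an alternative after seeing the data and turned none of the 5 values. Summing all genes of a class could not be tried for the regulatory shares, since the members are the whole class. Adcy6 rested on 6 to 29 reads per library and Prkar1b on 1 to 17, and neither was called with no filter.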
